A study of Mus musculus with 18 samples.

Results

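The volume-loaded left ventricle of MHC-cycD2 mice was set against the left ventricle of unoperated WT mice: 5 libraries titled Shunt and 5 titled control WT, chosen by those titles, 10 of the 18 libraries of the series. MHC-cycD2 mice carry a cyclin D2 transgene driven in heart muscle cells by a cardiac myosin heavy chain (MHC) promoter; WT mice carry none. All mice were (DBA/2J x C3HeB/FeJ)F1. In the Shunt group, aorta and vena cava were joined below the heart by a needle puncture at 8 weeks of age, which loads the ventricle with volume; WT mice had no treatment. The labels do not give the time from surgery to tissue, nor the age of WT mice. Another group, MHC-cycD2 mice with a sham operation (n = 5, the kind of sham not given), is quoted beside these values, because Shunt differs from WT in genotype, in surgery and in load at once and no WT shunt group was analysed here. The series names 4 comparisons of its own, and Shunt with WT is not among them; the question here was which differences of the transgenic heart from WT were present under volume load, and whether genes that mark a loaded ventricle stayed below the WT level.

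D-type cyclins, with the kinases CDK4 and CDK6, phosphorylate the retinoblastoma family of pocket proteins, which frees E2F factors to switch on the genes of DNA replication; the genes of mitosis are switched on later, through the MuvB complex with B-Myb and FoxM1. Heart muscle cells leave the cell cycle soon after birth. A ventricle under volume overload typically lengthens its muscle cells and turns on stretch-linked genes such as those of the natriuretic peptides and of skeletal actin.

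Gene counts came to 19297821 at the lowest, in WT 2, and 30594075 at the highest, in Shunt 5; no WT library reached the lowest Shunt library (exact two-sided permutation test, p = 0.0079, the smallest that 5 against 5 allows). Reads outside any gene were 19% to 22.78% in WT and 15.03% to 19.87% in Shunt (exact permutation p = 0.0238). The counter's tally of alignments that were not unique was 43.1% to 45.94% in WT and 37.61% to 42.77% in Shunt (exact permutation p = 0.0079). That share is of the tally plus the reads inside and outside genes. Whether the tally holds a read more than once was not checked. The top 10 genes held 12.6% to 13.56% of counts in WT and 13.92% to 14.96% in Shunt (exact permutation p = 0.0079). Every Shunt library had 3408 to 5787 counts of Xist and at most 1 of the Y-linked Ddx3y, and every WT library had 6 to 13 of Xist and 2286 to 2662 of Ddx3y, as sham did (at most 11 and at least 2039). The Shunt libraries thus carried female and the WT libraries male transcripts, so sex, genotype, surgery and load cannot be told apart between these groups, and results are given for autosomal genes only. Dbp, a clock output gene with the opposite daily phase to Arntl, was above Arntl in 5 of 5 Shunt and 2 of 5 WT libraries. The labels list each library as a separate sample without saying more, so a p-value here weighs a difference only against the scatter among the deposited samples, some of it possibly technical.

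Shunt libraries 1 and 5 stood apart from Shunt 2, 3 and 4. They were the 2 highest of the 5 in 32 of the 34 G2 and mitosis genes tested (94.1%) and in 13 of 20 cardiac load genes (65.0%), against 22.1% of all autosomal genes tested. The summed level of 4 red blood cell genes, globins among them, was 529 and 271 CPM in Shunt 1 and 5 (CPM, counts scaled to a common library size and composition) and 26.1 to 62.8 in Shunt 2 to 4, with 177 to 319 in WT. The part of blood, or of any other cause, in this split was not tested. Results that rest on these 2 libraries are given with and without them. The 2 were picked after their values were seen. Where they were the highest Shunt libraries, leaving them out lowers the Shunt level by construction. Values and p-values without them therefore describe the split and are no test of the load question.

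Of 13755 autosomal genes tested, 2435 were higher in Shunt than in WT (17.7%) and 2474 lower (18%), at a Benjamini-Hochberg adjusted p under 0.05 in edgeR's quasi-likelihood test; 363 of the higher (2.64%) and 358 of the lower (2.6%) differed at least 2-fold. Sham differed from the same WT libraries in 2261 genes higher (16.4%) and 2142 lower (15.6%). Between Shunt and sham directly, 53 genes were higher (0.385%) and 116 lower (0.843%); 2428 genes had an unadjusted p under 0.05 (17.7%). The Shunt and sham libraries did not overlap in 1.41% of genes with Shunt higher and 2.57% with Shunt lower. The median log2 difference between Shunt and WT over all autosomal genes was 0.00. When the mean level of Y-linked genes was added as a covariate, 407 genes were called higher and 344 lower; that fit needs all 18 libraries and takes its sex term from the 3 TAC (transverse aortic constriction) libraries, 1 of which had Ccnd2 at 230 CPM, near WT.

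The transgene was present in each Shunt library. Ccnd2, cyclin D2, had 166, 187, 173, 187 and 140 CPM in WT 1 to 5 and 21998, 22075, 19474, 17600 and 20737 in Shunt 1 to 5. No library lay between these ranges. The difference was 119-fold (log2 6.90 ± 0.14 SE, n = 5 and 5, adjusted p = 7.93e-16); reads of the transgene and of the native gene fall on the same symbol and cannot be told apart in gene counts. In sham, Ccnd2 had 21094 to 30626 CPM, and the log2 difference of Shunt from sham was -0.33 ± 0.11 (adjusted p = 0.1360).

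Among 16 tested cyclins, kinases and inhibitors of G1, 8 were higher in Shunt than in WT and none lower, where 17.7% of all genes were higher. Ccnd2 is among the 8, and its rise is that of the transgene itself. Beside Ccnd2 the strongest was an inhibitor: Cdkn2c, which encodes p18INK4c, a protein that binds and blocks CDK4 and CDK6. It had 9.79, 8.85, 9.91, 10.1 and 9.65 CPM in WT and 36.8, 34.2, 41.7, 39.9 and 38.2 in Shunt, with no overlap. Cdkn2c rose by log2 1.98 ± 0.07 (adjusted p = 2.71e-12), with 1.95 in sham against WT and 0.03 between Shunt and sham. Cdkn1b, the inhibitor p27, rose from 43.8 to 50.7 CPM in WT to 71.6 to 87.8 in Shunt (log2 0.75 ± 0.07). Ccne2, a cyclin E that drives entry into S phase, went from 3.11 to 4.06 CPM to 6.93 to 8.42 (1.10 ± 0.10), and its kinase partner Cdk2 from 11 to 14.3 CPM to 19.7 to 23.9 (0.76 ± 0.10). Cdkn1a, the stress-induced inhibitor p21, was not called: 34.6, 50.4, 49.5, 12.5 and 11.4 CPM in WT, 94.8, 43.2, 22.8, 27.5 and 70.2 in Shunt (0.71 ± 0.56, adjusted p = 0.3536). In the fit lacking Shunt 1 and 5, 6 of the 16 were higher and 1 lower, and Cdkn1a differed by -0.03 ± 0.61. The higher count was 5 with the share of reads outside genes as covariate and 4 with the Y-linked covariate. Among libraries with Dbp above Arntl alone, Cdkn1a was called, at 2.11 (adjusted p = 0.0374).

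Of 15 E2F factors, pocket proteins and partners, 8 were higher in Shunt and 1, the repressor E2f6, was lower, against 17.7% and 18% of all genes. The higher count was 7 without Shunt 1 and 5 (median 0.31, against 0.53), 4 with Dbp above Arntl, 4 with the share of reads outside genes as covariate and 0 with the Y-linked covariate. E2f1, an activator of replication genes, had 1.88, 1.38, 1.41, 1.52 and 2.48 CPM in WT and 13.7, 4.74, 6.3, 5.17 and 11.7 in Shunt. Every Shunt library was above every WT library, and Shunt 1 and 5 were the highest. The log2 difference was 2.26 ± 0.29 (adjusted p = 2.37e-05), and 1.63 ± 0.17 without Shunt 1 and 5; sham against WT gave 1.45. Rbl1, the pocket protein p107, rose by 0.67 ± 0.10, and Lin9 and Lin54, subunits of MuvB, by 0.99 ± 0.15 and 0.69 ± 0.09. E2f7, a repressor that E2F itself induces, was the only gene of the list called between Shunt and sham (log2 1.30, adjusted p = 0.0427). That call was lost in 11 of 15 single omissions, under limma-voom (adjusted p = 0.0687) and without Shunt 1 and 5 (0.76, adjusted p = 0.1062). It had 4.44, 1.3, 1.81, 1.96 and 2.87 CPM in Shunt, 0.806 to 1.81 in WT and 0.877 to 1.15 in sham. Without Shunt 1 and 5, its difference from WT was 0.43 ± 0.23 (adjusted p = 0.1680).

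The promoters of 2 replication genes and 2 mitosis genes are printed because their genes rose together and the windows hold the letter patterns known for each class. Each run is the 250 bases upstream of the gene's RefSeq start in build GRCm38.p6, 5′ to 3′ on the gene's strand, lower case with the matches in capitals. Mcm5 (plus strand, chr8:75109259-75109508) and Rrm2 (plus strand, chr12:24708004-24708253) show matches to E2F (the letters TTCCCGC, or with another middle TTCGCGC, or in place of them TTGCCGC, or with the same ending TTGGCGC) and CCAAT. Top2a (minus strand, chr11:99024190-99024439) and Bub1b (plus strand, chr2:118597961-118598210) show matches to the cell cycle homology region, CHR (TTTGAA or TTCGAA), and CCAAT. Both strands were searched, so a match can read as its reverse complement, and neighbouring matches can share letters.
Mcm5: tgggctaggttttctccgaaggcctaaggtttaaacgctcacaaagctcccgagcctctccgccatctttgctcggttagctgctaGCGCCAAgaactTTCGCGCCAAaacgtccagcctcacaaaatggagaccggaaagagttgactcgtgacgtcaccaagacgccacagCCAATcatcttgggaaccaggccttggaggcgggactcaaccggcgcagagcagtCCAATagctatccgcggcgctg
Rrm2: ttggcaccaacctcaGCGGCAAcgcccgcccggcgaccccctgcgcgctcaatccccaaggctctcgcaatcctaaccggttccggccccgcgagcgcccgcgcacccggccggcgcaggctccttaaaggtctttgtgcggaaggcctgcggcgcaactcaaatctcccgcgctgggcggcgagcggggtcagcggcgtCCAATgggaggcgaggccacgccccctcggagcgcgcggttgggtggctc
Top2a: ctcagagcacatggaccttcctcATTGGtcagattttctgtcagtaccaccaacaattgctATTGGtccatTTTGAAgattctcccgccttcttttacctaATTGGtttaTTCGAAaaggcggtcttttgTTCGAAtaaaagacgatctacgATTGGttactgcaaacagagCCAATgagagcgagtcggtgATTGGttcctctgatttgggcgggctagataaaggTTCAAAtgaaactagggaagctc
Bub1b: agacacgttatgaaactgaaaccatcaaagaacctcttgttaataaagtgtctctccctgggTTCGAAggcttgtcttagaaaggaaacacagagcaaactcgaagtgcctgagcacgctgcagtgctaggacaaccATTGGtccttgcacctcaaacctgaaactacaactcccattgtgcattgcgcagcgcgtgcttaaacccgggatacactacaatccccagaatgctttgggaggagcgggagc
The Mcm5 run holds 3 E2F and 2 CCAAT matches, 2 of the E2F matches overlapping. The Top2a run holds 4 CHR and 6 CCAAT matches. In windows that add the 50 bases after the start (300 in all), 20 of the 32 replication genes with a window held an E2F match (62.5%), against 4 of 29 mitosis genes (13.8%), 9.73% of all 25748 autosomal windows and 16.7% of the 10389 tested genes with one. CHR ran the other way: 23 of 29 mitosis genes (79.3%) and 4 of 32 replication genes (12.5%) held a match, against 19% of all windows and 13.2% of those of tested genes. CCAAT was found in 21 of 32 (65.6%) and 23 of 29 (79.3%), against 37.7% of all windows. A match is a description of letters; binding was not measured.

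DNA replication genes were higher in Shunt in 32 of 40 cases and lower in 1, against 17.7% and 18% of all genes. Their median log2 difference was 0.88, against 0.00 over all autosomal genes. The same list had 28 higher and 1 lower in sham against WT (median 0.75), and no member was called between Shunt and sham (median difference 0.11). The members that rose included 6 subunits of the MCM helicase (Mcm2 to Mcm7), loading factors (Cdt1, Orc1, Orc6), the CMG partners Cdc45, Gins1, Gins2 and Gins4, the clamp Pcna and its loaders, the polymerases Pole and Pold1, and the nucleotide enzymes Rrm1, Rrm2 and Tk1. Mcm5 had 6.33, 4.75, 5.05, 6.67 and 8.41 CPM in WT and 28.6, 19.8, 23.8, 17.8 and 27.6 in Shunt. The groups did not overlap, as they did not for 11.1% of all genes in this direction. Mcm5 rose by 1.91 ± 0.16 (adjusted p = 2.36e-07), with 2.00 in sham. Mcm2 had 6.03 to 10.5 CPM in WT and 38.5 to 45 in Shunt, a log2 difference of 2.36 ± 0.11, with 2.53 in sham.

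Rrm2, the regulated subunit of ribonucleotide reductase, had 2.82, 2.25, 2.19, 3.67 and 4.56 CPM in WT and 29.7, 10.7, 9.45, 12.9 and 22 in Shunt. Shunt 1 and 5 were again the highest, and every Shunt library was above every WT library. Rrm2 rose by 2.44 ± 0.34 (adjusted p = 8.13e-05), and by 1.81 ± 0.25 without Shunt 1 and 5. Its partner Rrm1 rose by 1.05 ± 0.06 and by 0.99 ± 0.06 without them. The single fall in the list was Gmnn, geminin, which blocks the licensing factor Cdt1: it went from 61 to 67.8 CPM in WT to 36 to 47.9 in Shunt (-0.69 ± 0.09), with 33.7 to 48.2 in sham. With Shunt 1 and 5 left out, 28 of the 40 were higher and 1 lower, with a median of 0.65. Among the libraries with Dbp above Arntl alone, 24 of the 40 were higher; with the Y-linked covariate 7 were, Mcm2 (log2 3.25) and Mcm5 (2.55) among them.

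G2 and mitosis genes were higher in 31 of 34 cases and lower in none, against 17.7% and 18% of all genes, with a median of 1.51. In sham against WT, 11 were called higher, with a median of 0.77. No member was called between Shunt and sham, where the median difference was 0.74, so a difference between the 2 transgenic groups was not shown for any single gene. The summed level of the list was 416, 184, 225, 206 and 331 CPM in Shunt 1 to 5 and 124 to 168 in WT, with Shunt 1 and 5 the highest and all 5 above WT. Without Shunt 1 and 5 the median was 0.86 with 26 members higher, and sham against WT in that fit had 23 higher with a median of 0.75. The count higher in Shunt than in WT was 15 with Dbp above Arntl and 2 with the Y-linked covariate.

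Top2a, the topoisomerase that untangles chromosomes before mitosis, had 5.49, 4.86, 4.81, 5.24 and 6.77 CPM in WT and 32.4, 8.6, 10.5, 13.4 and 22.9 in Shunt. It rose by 1.69 ± 0.32 (adjusted p = 0.0009), and by 0.99 ± 0.18 without Shunt 1 and 5. Top2a was not called with Dbp above Arntl (1.55, adjusted p = 0.0676) or with the Y-linked covariate (1.46, adjusted p = 0.2820). Mki67, the proliferation marker Ki-67, had 8.01, 6.14, 7.48, 6.67 and 9.95 CPM in WT and 33.8, 8.15, 12.4, 14.5 and 24.4 in Shunt. Shunt 2 lay inside the WT range. Mki67 rose by 1.28 ± 0.32 (adjusted p = 0.0063); in sham the difference was 0.43 (adjusted p = 0.3392), and between Shunt and sham 0.85 (adjusted p = 0.1804). Without Shunt 1 and 5 it was 0.61 ± 0.21 (adjusted p = 0.0403), among libraries with Dbp above Arntl alone 1.17 (adjusted p = 0.1580) and with the Y-linked covariate 0.89 (adjusted p = 0.5331).

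Bub1b, the checkpoint kinase BubR1, was steadier: 1.24, 1.02, 1.94, 1.16 and 1.37 CPM in WT, 7.73, 4.38, 4.12, 4.88 and 7.15 in Shunt. It rose by 2.06 ± 0.21 (adjusted p = 1.99e-06) and by 1.72 ± 0.18 without Shunt 1 and 5, with 1.73 in sham. Ccnb1, cyclin B1, which activates Cdk1 at entry into mitosis, had at most 0.398 CPM in WT and 2.37, 0.689, 0.436, 0.961 and 2.26 in Shunt (2.73 ± 0.54, 1.77 ± 0.46 without Shunt 1 and 5). Ccnb1 was so low in WT that it passed the low-count filter through the transgenic groups, which favours a rise. It is part of the count of mitosis genes called higher. The Ccnb1 call was lost with Dbp above Arntl (2.09, adjusted p = 0.0666) and with the Y-linked covariate (2.67, adjusted p = 0.1506). Cdc20, which triggers chromosome separation, rose by 1.76 ± 0.27 and 1.2 ± 0.19, and Racgap1, needed for division of the cell body, by 1.84 ± 0.27 and 1.29 ± 0.19, in the same order. In bulk tissue, more cycling cells and more RNA per cycling cell cannot be told apart, nor can the cell type that carries these transcripts be read from them. Of the other cell types, 7 of 15 endothelial markers were lower in Shunt and none higher (median -0.28, and -0.26 in sham). Fibroblast markers split 2 higher and 1 lower of 10, and no macrophage marker of 12 was called. Of all genes, 17.7% were higher and 18% lower. The part of these cells in the cell cycle result was not tested.

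**Figure D1:**
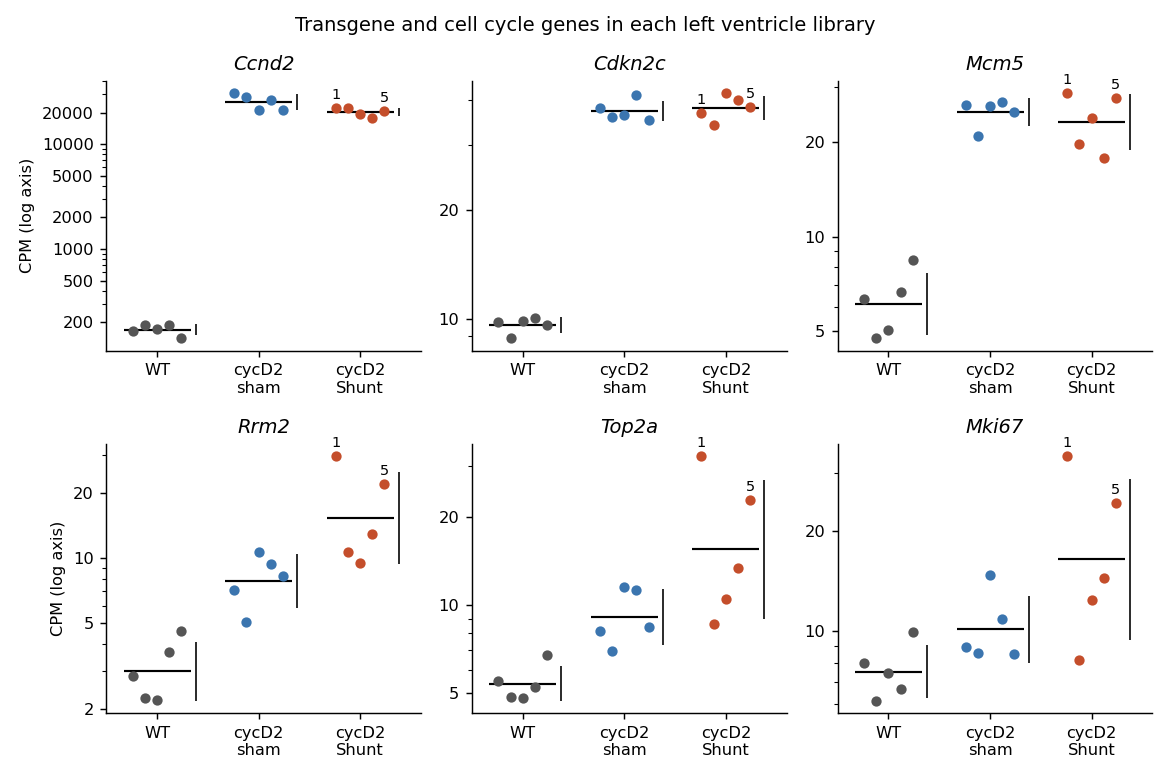
Level of the cyclin D2 gene and 5 cell cycle genes in each library, in CPM on a log axis, for WT, cycD2 sham and cycD2 Shunt (5 libraries each). Points are libraries, the horizontal line is the mean and the vertical bar ± 1 SD of the log2 values, and the numbers mark Shunt libraries 1 and 5. Every sham and Shunt value of Ccnd2, Cdkn2c and Mcm5 is above every WT value; Rrm2, Top2a and Mki67 are highest in Shunt 1 and 5.

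Of 23 skeletal muscle isoforms, 9 were below the low-count filter, fast myosins such as Myh4 with at most 6 counts in any library among them. Of the 14 that passed, 9 were called higher in Shunt than in WT and 1 lower (17.7% and 18% of all genes). Several of the 9, such as Atp2a1, Tnni1, Tnnt3 and Mybpc1, were so low in WT that they passed the filter through the transgenic groups. That favours rises, so the count is no measure of the list. Single genes are described, with the same limit on the rises of these genes. Atp2a1, the calcium pump SERCA1 of fast skeletal muscle, had 0.346, 0.256, 0.388, 0.403 and 0.619 CPM in WT and 7.39, 8.92, 8.34, 7.95 and 8.15 in Shunt. The Shunt libraries lay close together and far from WT, at 4.31 ± 0.18 (adjusted p = 4.25e-11), with 4.69 in sham. Tnni1, slow skeletal troponin I, which is also the fetal form in the heart, had 0.134 to 0.291 CPM in WT and 2.49, 2.31, 2.65, 4.8 and 2.71 in Shunt (3.94 ± 0.38). The fast forms Tnni2 and Tnnt3 rose by 2.80 ± 0.23 and 3.21 ± 0.31.

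Casq1, skeletal calsequestrin, had 28.6, 39.7, 25, 41.2 and 48.3 CPM in WT and 283, 124, 42.4, 175 and 182 in Shunt, where Shunt 3 lay inside the WT range (2.14 ± 0.40, adjusted p = 0.0010). The fall was Cacna1s, the skeletal L-type calcium channel, from 24.1 to 32 CPM to 5.73 to 7.71 (-2.04 ± 0.12), with -2.17 in sham. No member of the list was called between Shunt and sham. Casq1 gave 1.63 ± 0.39 without Shunt 1 and 5, and 1.85 (adjusted p = 0.0773) among libraries with Dbp above Arntl.

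Cardiac load genes, a list of 20 tested stretch and stress responders, were lower in Shunt than in WT in 8 cases (Acta1, Ankrd1, Ankrd23, Xirp2, Csrp3, Rcan1, Ccn1 and Clu) and higher in 2 (Myh7 and Sprr1a), with a median of -0.43, where 18% of all genes were lower. In sham 10 were lower and 2 higher (median -0.48). No member was called between Shunt and sham (median 0.01). The summed level was 10154, 7698, 6914, 7555 and 8891 CPM in Shunt 1 to 5 and 10424 to 13468 in WT. All 5 Shunt libraries were thus below all 5 WT libraries, and Shunt 1 came nearest. Once Shunt 1 and 5 were left out, 12 members were lower and none higher (median -0.81). As these were the highest Shunt libraries in most load genes, that shift follows from leaving them out. The lower count was 5 with Dbp above Arntl, 4 with the share of reads outside genes as covariate and 1 with the Y-linked covariate. Xirp2 lost its call with Dbp above Arntl (-0.16, adjusted p = 0.4248) and with reads outside genes as covariate (-0.14, adjusted p = 0.5365). It also lost it with all 18 libraries (adjusted p = 0.0613). With Dbp above Arntl Ankrd23 was -0.47 (adjusted p = 0.2240), and with reads outside genes -0.71 (adjusted p = 0.1917), neither called.

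Acta1, skeletal actin, had 1905, 1956, 1382, 782 and 1899 CPM in WT and 749, 150, 25.2, 62.2 and 448 in Shunt. No Shunt library reached the lowest WT library, but Shunt 1 came within a few percent of it, and the 5 Shunt libraries spread widely. The log2 difference was -2.47 ± 0.75 (adjusted p = 0.0215), and -4.33 ± 0.66 (adjusted p = 0.0006) without Shunt 1 and 5; sham against WT gave -3.25 (adjusted p = 0.0068). The call was lost in 5 other settings: WT and Shunt libraries fitted alone (-2.47, adjusted p = 0.0548), Dbp above Arntl (-2.23, adjusted p = 0.1852), Myl7 at most 50 CPM (-1.95, adjusted p = 0.1353), the share of reads outside genes as covariate (-2.31, adjusted p = 0.1584) and the Y-linked covariate (-3.33, adjusted p = 0.3500). Ankrd1, a stretch-sensing repeat protein of the sarcomere and nucleus, had 2054, 1672, 1508, 2009 and 3718 CPM in WT and 925, 752, 727, 1038 and 748 in Shunt. The groups did not overlap, and Shunt 1 and 5 did not stand out. The log2 difference of Ankrd1 was -1.39 ± 0.28 (adjusted p = 0.0015), and -1.39 ± 0.36 when Shunt 1 and 5 were left out; in sham it was -0.90. With the Y-linked covariate it was -2.21 (adjusted p = 0.0787).

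Rcan1, a target and inhibitor of calcineurin, had 242, 237, 194, 107 and 121 CPM in WT and 93.1, 96.1, 62.1, 69.1 and 90 in Shunt (-1.13 ± 0.29, adjusted p = 0.0081). Ccn1, a matrix protein induced by stretch, went from 72.8 to 110 CPM to 30.9 to 63.3 (-0.99 ± 0.18), and Clu, clusterin, from 396 to 518 to 255 to 309 (-0.69 ± 0.10). Ccn2, connective tissue growth factor, was not called: 61.3, 97.6, 97.5, 130 and 109 CPM in WT, 164, 64, 33, 35 and 117 in Shunt (-0.27 ± 0.44, adjusted p = 0.6802). Shunt 1 had the highest Ccn2 of the 10 libraries and Shunt 3 the lowest. The Ccn2 difference was -1.18 ± 0.39 (adjusted p = 0.0350) without Shunt 1 and 5. The 2 rises were small or rested on few counts: Myh7, the slow myosin heavy chain, had 2538 to 2728 CPM in Shunt and 1845 to 2851 in WT (0.30 ± 0.10, adjusted p = 0.0252), and lost its call without WT 1, WT 2, WT 3 or Shunt 5 in turn (lowest difference of these 0.24). Among libraries with Dbp above Arntl, Myh7 differed by 0.05 (adjusted p = 0.7256). With reads outside genes as covariate it differed by 0.15 (adjusted p = 0.4492). Sprr1a, a stress-induced protein, had at most 0.935 CPM (1.44 ± 0.54, adjusted p = 0.0484) and gave 0.87 (adjusted p = 0.3006) without Shunt 1 and 5.

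The promoters of Acta1 (minus strand, chr8:123894776-123895025) and Ankrd1 (minus strand, chr19:36119845-36120094) are shown in the same way as those above, with the muscle patterns MCAT (CATTCC), bound by TEAD factors, and CArG, bound by serum response factor, in capitals.
Acta1: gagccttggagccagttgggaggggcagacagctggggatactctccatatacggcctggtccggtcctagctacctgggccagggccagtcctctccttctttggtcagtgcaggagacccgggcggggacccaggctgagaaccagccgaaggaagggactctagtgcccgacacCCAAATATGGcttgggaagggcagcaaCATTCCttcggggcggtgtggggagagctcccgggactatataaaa
Ankrd1: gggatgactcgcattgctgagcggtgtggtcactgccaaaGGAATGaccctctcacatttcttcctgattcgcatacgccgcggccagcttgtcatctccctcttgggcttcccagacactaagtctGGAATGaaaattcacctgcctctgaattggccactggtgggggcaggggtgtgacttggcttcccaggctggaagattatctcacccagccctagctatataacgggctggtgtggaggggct
Acta1 holds 1 CArG and 1 MCAT match and Ankrd1 2 MCAT matches. An MCAT match was found in 9 of the 16 cardiac load genes with a window (56.2%), against 14.5% of all autosomal windows and 12.2% of those of tested genes; CArG was found in 1 of 16 (6.25%) against 1.48%.

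The natriuretic peptides were not called in Shunt against WT. Nppa, atrial natriuretic peptide, had 344, 128, 125, 169 and 308 CPM in WT and 328, 53.2, 25.6, 45.2 and 220 in Shunt. Shunt 1 and 5 lay inside the WT range, and Shunt 2, 3 and 4 lay below it, where sham lay too (36.7 to 52.6). Nppa differed by -0.67 ± 0.61 (adjusted p = 0.4257) with all 5 Shunt libraries and by -2.38 ± 0.41 (adjusted p = 0.0011) without Shunt 1 and 5; sham against WT gave -2.24 (adjusted p = 0.0180). Between Shunt and sham the difference was 1.57 (adjusted p = 0.2204). Nppb, brain natriuretic peptide, had 234, 250, 171, 63.6 and 159 CPM in WT and 137, 34.6, 8.07, 16.6 and 79.3 in Shunt. Shunt 1 and 5 were above the lowest WT library and the other 3 Shunt libraries below it. The difference was -1.67 ± 0.72 (adjusted p = 0.0893), -3.16 ± 0.74 (adjusted p = 0.0074) without Shunt 1 and 5, and -2.34 (adjusted p = 0.0247) without Shunt 1 alone; DESeq2 and limma-voom called it with all libraries (adjusted p = 0.0443 and 0.0124), as did the replicate block (adjusted p = 0.0221).

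Corin, the protease that activates atrial natriuretic peptide, rose from 106 to 132 CPM in WT to 155, 207, 296, 264 and 189 in Shunt (0.88 ± 0.15), and Furin, the convertase that cuts brain natriuretic peptide, from 144 to 160 to 203 to 272 (0.67 ± 0.08). Npr3, the clearance receptor, fell from 25.3 to 45.7 CPM to 11.2, 14.3, 15, 7.13 and 11 (-1.61 ± 0.19, adjusted p = 1.56e-05), with -1.38 in sham. Npr1, the signalling receptor, fell by 0.29 ± 0.09 on the log2 scale, a call lost without WT 4 (-0.22, adjusted p = 0.0565) and without Shunt 1 and 5 (-0.23, adjusted p = 0.1007). Prkg1, the kinase that cGMP activates, rose by 0.66 ± 0.15. In all, 3 of the 10 tested members of the axis were higher and 2 lower, near the 17.7% and 18% of all genes.

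**Figure D2:**
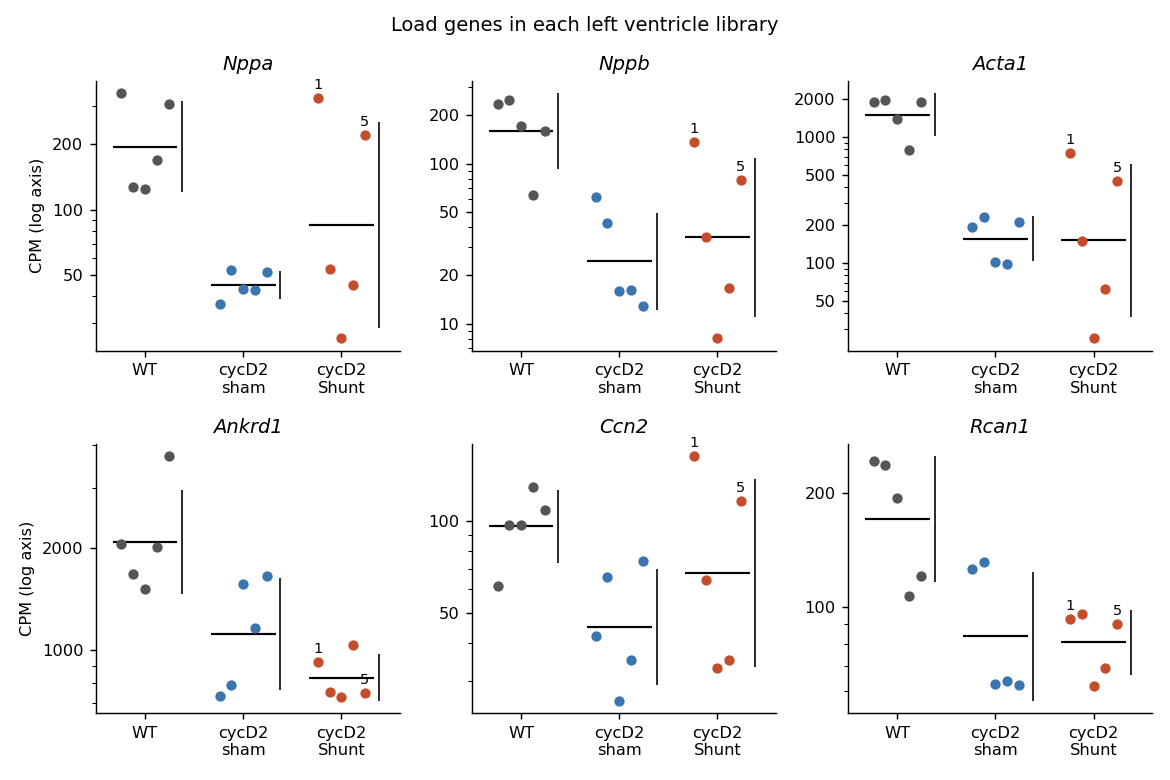
Level of 6 load genes in each library, in CPM on a log axis, for WT, cycD2 sham and cycD2 Shunt (5 libraries each). Points are libraries, the horizontal line is the mean and the vertical bar ± 1 SD of the log2 values, and the numbers mark Shunt libraries 1 and 5. For Nppa, Shunt 1 and 5 (328 and 220) reach the WT range while the other 3 (25.6 to 53.2) do not; for Ankrd1 all 5 Shunt libraries are below WT.

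Of 38 extracellular matrix genes, 3 were higher in Shunt than in WT (Lum, Col14a1 and Loxl2) and none lower, with a median of 0.28, where 17.7% of all genes were higher. In sham against WT none was called. Without Shunt 1 and 5 there were 2 higher and 2 lower with a median of 0.08, and without Shunt 3 alone 9 were higher. Lum, the collagen-binding proteoglycan lumican, had 117, 130, 109, 105 and 134 CPM in WT, 204, 190, 147, 171 and 168 in Shunt and 93.4 to 141 in sham. Shunt was above both other groups without overlap, and Lum was called against WT (0.57 ± 0.11, adjusted p = 0.0012) and against sham (0.63, adjusted p = 0.0172), the latter lost in 2 of 15 single omissions and without Shunt 1 and 5 (0.58, adjusted p = 0.0552). Col14a1, a fibril-associated collagen, had 13.6 to 24.8 CPM in WT, 58.6, 53.9, 37, 47 and 55.5 in Shunt and 9.83 to 36.5 in sham (1.46 ± 0.28 against WT, 1.21 against sham with an adjusted p of 0.0503). Loxl2, a collagen cross-linking enzyme, rose by 0.92 against WT (log2) but by 0.49 ± 0.22 (adjusted p = 0.1066) without Shunt 1 and 5.

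The fibrillar collagens were not called: Col1a1 had 141 to 190 CPM in WT and 254, 242, 114, 173 and 262 in Shunt (0.37 ± 0.26, adjusted p = 0.2979), and Col3a1 differed by 0.26 ± 0.27. Postn, periostin, had 44.7 to 96.3 CPM in WT and 171, 120, 30.3, 84.3 and 136 in Shunt (0.82 ± 0.49, adjusted p = 0.2144). Shunt 3 was the lowest of all 10 libraries for Postn and Col1a1. The male and female libraries differ between the groups, and with the Y-linked covariate Lum (-0.62), Col14a1 (-0.46), Loxl2 (-0.23), Col1a1 (-0.87), Col3a1 (-1.05) and Postn (-1.18) all took the other sign, none of them called.

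Of 16 sarcomere genes, 2 were higher (Myh6 and Ttn) and 5 lower (Myl3, Tnnt2, Mybpc3, Ldb3 and Des), with a median of -0.07, where 17.7% of all genes were higher and 18% lower. Without Shunt 1 and 5, 8 were lower (median -0.21); the lower count was 3 with all 18 libraries, with Myl7 at most 50 CPM or with the share of reads outside genes as covariate, and 0 with the Y-linked covariate. Myh6, the fast myosin heavy chain of the adult mouse ventricle, had 22439 to 32648 CPM in WT and 30149 to 35226 in Shunt (0.33 ± 0.09, adjusted p = 0.01), but 0.13 (adjusted p = 0.3570) among libraries with Dbp above Arntl. Ttn, titin, rose by 0.42 ± 0.09, and Mybpc3, myosin binding protein C, fell by 0.56 ± 0.10 on the log2 scale, from 5618 to 6863 CPM to 3657 to 4815. Tnnt2, cardiac troponin T, had 9771 to 11872 CPM in WT, 7517 to 8555 in Shunt and 9245 to 11214 in sham; it was lower in Shunt than in WT (-0.40 ± 0.07) and than in sham (-0.34, adjusted p = 0.0267). The Tnnt2 call against sham was lost in 6 of 15 single omissions and without Shunt 1 and 5 (-0.28, adjusted p = 0.0840).

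Of 20 calcium handling genes, 1 was higher and 7 lower, against 17.7% and 18% of all genes. The counts were 4 higher and 8 lower without Shunt 1 and 5, and the lower count was 4 with Dbp above Arntl or with reads outside genes as covariate and 2 with the Y-linked covariate. Atp2a2, the cardiac calcium pump SERCA2, was the higher one (0.25 ± 0.07, adjusted p = 0.0081), with Shunt 1 at 17476 CPM inside the WT range of 16742 to 18406 and the others at 20811 to 23532. The Atp2a2 call was lost with Dbp above Arntl (0.23, adjusted p = 0.1216) and with reads outside genes as covariate (0.22, adjusted p = 0.1471). Camk2b, a calmodulin-dependent kinase, fell from 38.3 to 41.3 CPM to 12.9 to 19.3 (-1.19 ± 0.11), with -1.03 in sham. S100a1, a calcium sensor that acts on SERCA2 and the ryanodine receptor, fell from 715 to 808 CPM to 396 to 483 (-0.80 ± 0.07), with -0.56 in sham. Hrc, a calcium-binding protein of the sarcoplasmic reticulum, had 1398 to 1590 CPM in WT, 1133 to 1323 in Shunt and 1392 to 1642 in sham, and was lower in Shunt than in either (-0.30 ± 0.06 against WT; -0.28 against sham, adjusted p = 0.0332). The Hrc call against sham was lost in 6 of 15 single omissions and without Shunt 1 and 5 (-0.23, adjusted p = 0.0856).

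Of 27 ion channel and connexin genes, 10 were higher and 4 lower in Shunt, against 17.7% and 18% of all genes. In sham 13 were higher and 4 lower, against 16.4% and 15.6%. Kcne1, the accessory subunit of the slow delayed rectifier, had 19.1, 13.3, 9.37, 8.2 and 16.4 CPM in WT and 88.4, 112, 89.2, 104 and 105 in Shunt. The Shunt libraries were close together and far above WT (2.91 ± 0.27, adjusted p = 2.93e-06), with 2.78 in sham. Its pore subunit Kcnq1 rose from 45.9 to 65 CPM to 81.9 to 97.8 (0.69 ± 0.08). Cacna1g, a T-type calcium channel of the fetal ventricle and of pacemaker cells, had 23.1, 30.6, 30.8, 34.2 and 34 CPM in WT and 99.5, 134, 121, 185 and 124 in Shunt (2.12 ± 0.20), and Gjc1, connexin 45, rose by 0.73 ± 0.09. Scn4b, a sodium channel beta subunit, fell from 151 to 211 CPM to 84.9, 44.5, 45.6, 43.1 and 73.4 (-1.62 ± 0.21, adjusted p = 4.76e-05), and Hcn2, a pacemaker channel, from 47.2 to 70.6 to 18.5 to 29.4 (-1.18 ± 0.16). The count of channels called higher was 6 among libraries with Dbp above Arntl, 6 with Myl7 at most 50 CPM and 6 with the Y-linked covariate, and 14 without Shunt 1 and 5.

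**Figure D3:**
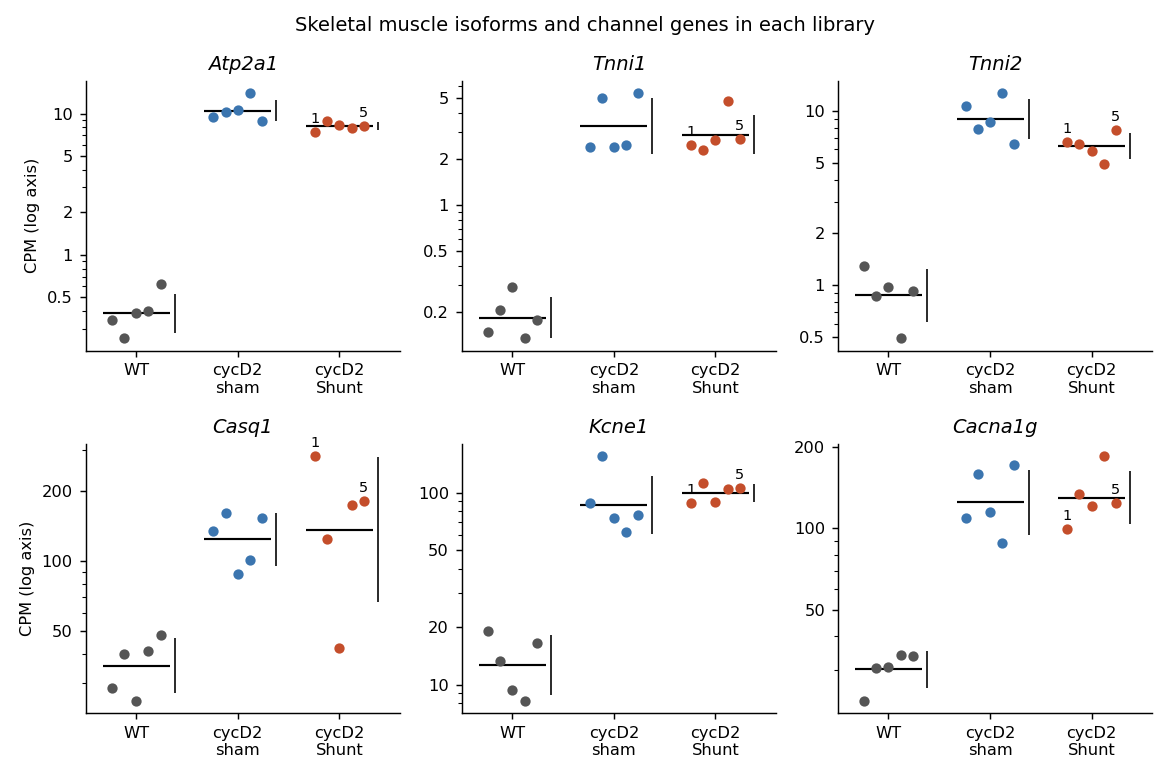
Level of 4 skeletal muscle isoforms and 2 channel genes in each library, in CPM on a log axis, for WT, cycD2 sham and cycD2 Shunt (5 libraries each). Points are libraries, the horizontal line is the mean and the vertical bar ± 1 SD of the log2 values, and the numbers mark Shunt libraries 1 and 5. Casq1 in Shunt 3 (42.4) is the only Shunt value of these 6 genes inside the WT range.

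Of 33 genes of fatty acid uptake and oxidation, 19 were lower and 3 higher (median -0.27), against 18% and 17.7% of all genes. In sham against WT 11 were lower and 2 higher (median -0.13), against 15.6% and 16.4%. Between Shunt and sham 6 were lower in Shunt, where 0.843% of all genes were. Without Shunt 1 and 5, 2 were lower and 1 higher than in sham. Acads, short-chain acyl-CoA dehydrogenase, had 376 to 414 CPM in WT, 229 to 258 in Shunt and 269 to 342 in sham. Shunt lay below both groups, at -0.65 ± 0.06 against WT (adjusted p = 6.24e-07) and -0.27 against sham (adjusted p = 0.0427). The Acads call against sham was lost in 12 of 15 single omissions and without Shunt 1 and 5 (adjusted p = 0.0563). Hadh, the next dehydrogenase of the cycle, gave -0.57 ± 0.06 and -0.25 (adjusted p = 0.0493) in the same order; the Hadh call against sham was lost in 13 of 15 single omissions and with autosomal genes alone in the fit (adjusted p = 0.0561). Acadm, the medium-chain enzyme, fell by 0.61 ± 0.06 on the log2 scale and Etfdh, which passes electrons on to the respiratory chain, by 0.59 ± 0.06. Slc25a20, the carnitine carrier, went from 177 to 215 CPM to 108 to 132 (-0.69 ± 0.07), and Cd36, the fatty acid transporter, from 2430 to 3314 to 1835 to 2409 (-0.45 ± 0.10). The Cd36 call was lost with Dbp above Arntl (-0.25, adjusted p = 0.0783) and with reads outside genes as covariate (-0.33, adjusted p = 0.1078). With the Y-linked covariate it was lost too (-0.23, adjusted p = 0.6087).

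The 3 rises in that list were Slc27a1, Cpt1a and Ppargc1a. None of the list was called higher with Dbp above Arntl, where Cpt1a gave 0.25 (adjusted p = 0.1699) and Ppargc1a 1.08 (adjusted p = 0.0847), and 1 was with reads outside genes as covariate. Ppargc1a, the coactivator PGC-1α that promotes mitochondrial genes, had 126, 128, 141, 123 and 124 CPM in WT and 459, 158, 195, 185 and 307 in Shunt. All Shunt libraries were above WT, with Shunt 1 and 5 highest. It rose by 1.02 ± 0.23 (adjusted p = 0.0030), and by 0.48 ± 0.07 without Shunt 1 and 5; sham had 135 to 157 CPM. Cpt1a, the liver-type carnitine palmitoyltransferase, rose by 0.50 ± 0.12, with 45.5 to 70.7 CPM in WT and 69.9 to 97.4 in Shunt. Pdk4, a kinase that shuts off pyruvate dehydrogenase and is also counted in that list, was not called (-0.13 ± 0.41) and its sign changed with the libraries used.

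Of 27 genes of the tricarboxylic acid (TCA) cycle and pyruvate entry, 17 were lower and none higher (median -0.26), against 18% and 17.7% of all genes. In sham 11 were lower and 1 higher. Pdhx, the subunit that anchors the dihydrolipoamide dehydrogenase in the pyruvate dehydrogenase complex, had 291, 294, 288, 249 and 271 CPM in WT and 173, 145, 138, 146 and 164 in Shunt (-0.86 ± 0.07, adjusted p = 8.82e-08), with -0.73 in sham. Sucla2, a succinyl-CoA ligase subunit, fell by 0.46 ± 0.06 on the log2 scale and Dlst, of the oxoglutarate dehydrogenase complex, by 0.38 ± 0.06. Of 20 genes of glucose and ketone use, 8 were lower and none higher, against the same shares. Pgam2, muscle phosphoglycerate mutase, fell from 787 to 860 CPM to 348 to 521 (-0.99 ± 0.10), and Ldhb, the heart lactate dehydrogenase subunit, by 0.54 ± 0.06 on the log2 scale. Bdh1, which makes ketone bodies usable, had 399, 372, 362, 359 and 395 CPM in WT and 124, 82.7, 33.3, 35.6 and 115 in Shunt (-2.27 ± 0.37, adjusted p = 0.0004), with 18.6 to 49.2 CPM in sham (-3.59 against WT; Shunt against sham 1.32, adjusted p = 0.0996).

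Of 19 genes of branched-chain amino acid breakdown, 11 were lower and none higher (median -0.29), against 18% and 17.7% of all genes. In sham 9 were lower. Bckdha, a subunit of the rate-setting dehydrogenase, had 483, 448, 477, 506 and 463 CPM in WT and 223, 268, 315, 258 and 244 in Shunt (-0.86 ± 0.10, adjusted p = 5.21e-06), and Hibch, of valine breakdown, fell by 0.67 ± 0.07 on the log2 scale. Shunt 1 and 5 were the 2 lowest Shunt libraries in 14 of the 19 (73.7%). The fuel lists counted 19, 16, 8 and 10 lower without Shunt 1 and 5, in the order fatty acid, TCA, glucose and ketone, amino acid. With the Y-linked covariate the counts were 0, 2, 1 and 1, in that order; Pdhx was then -0.82 (adjusted p = 0.0185) and Acads -0.30 (adjusted p = 0.2696).

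**Figure D4:**
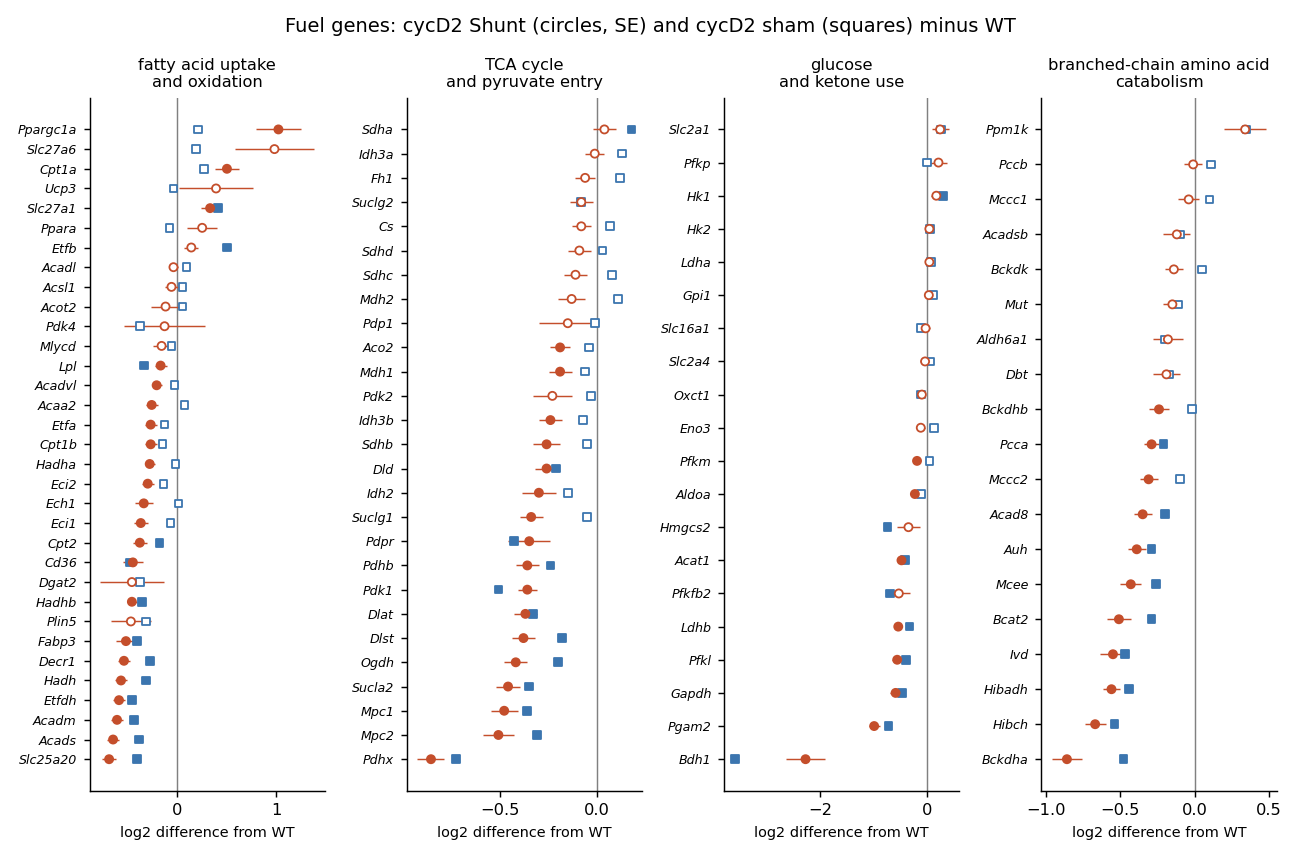
Log2 difference from WT of each tested gene in 4 fuel lists, for cycD2 Shunt (circles, with the SE as a line) and cycD2 sham (squares), 5 libraries a group; filled symbols passed an adjusted p under 0.05 and open ones did not. Most Shunt circles lie left of 0, with Bdh1 at -2.27 the farthest and Ppargc1a at 1.02 the largest called rise.

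**Figure D5:**
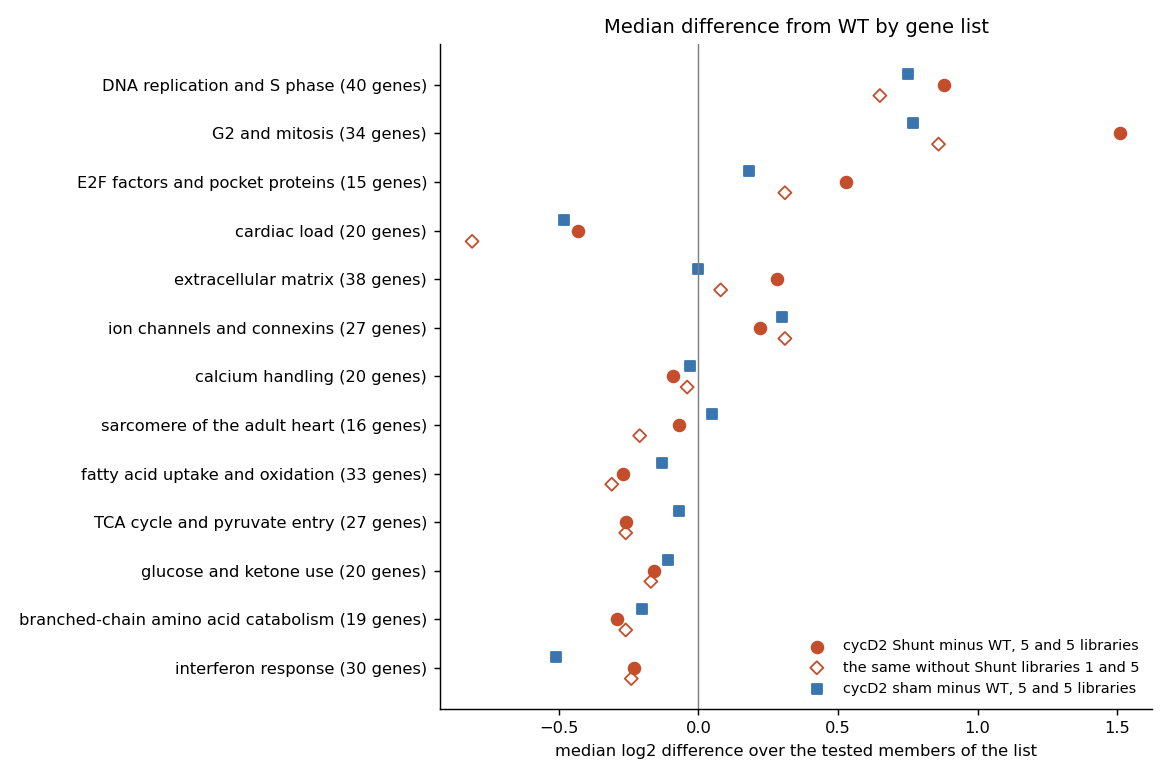
Median log2 difference from WT over the tested members of 13 gene lists, for cycD2 Shunt (filled circles), for Shunt without libraries 1 and 5 (open diamonds) and for cycD2 sham (squares). The G2 and mitosis median moves from 1.51 to 0.86 and the cardiac load median from -0.43 to -0.81 without Shunt 1 and 5, while the fatty acid median moves from -0.27 to -0.31.

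Among protein-coding genes called with no overlap and a mean log2 CPM of at least 1, the largest rises after Ccnd2 and Atp2a1 were Ptprt, a receptor tyrosine phosphatase (0.973 to 2.33 CPM in WT, 15.8 to 27.2 in Shunt; 3.78 ± 0.19), Myl4, the atrial essential light chain (3.62 ± 0.89), Ppp1r1b, the phosphatase inhibitor DARPP-32 (3.02 ± 0.60), and Ankrd63 (2.97 ± 0.32). Their differences in sham were 4.15, 4.32, 3.58 and 3.23, and none was called between Shunt and sham. Myl4 had 45.6, 108, 28.8, 234 and 41.5 CPM in Shunt and 3.63 to 19.4 in WT. It moved with other atrial markers in Shunt 2 and 4: Myl7 was at 85.1 and 204 CPM there, 2.36 to 6.59 in the other 3 Shunt libraries and at most 8.01 in WT. In the 3 Shunt libraries low in Myl7, Myl4 was at 28.8 to 45.6 CPM. The Myl4 call was lost with Dbp above Arntl (4.49, adjusted p = 0.0704) and with reads outside genes as covariate (3.63, adjusted p = 0.1010). With the Y-linked covariate it was lost too (4.55, adjusted p = 0.1801). The summed atrial list of 8 genes was 157 to 662 CPM in Shunt and 98.2 to 155 in WT, with Bmp10 at no more than 4 counts in any library. The part of atrial tissue in Myl4 was not tested.

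The largest falls were Cpxm2, a carboxypeptidase-like secreted protein, Ogdhl, a relative of oxoglutarate dehydrogenase, Acsm5, a medium-chain acyl-CoA synthetase, Penk, which encodes the enkephalin precursor, Cds1, an enzyme of phospholipid synthesis, and C7, a complement component. Cpxm2 had 112, 96.4, 77.3, 81.3 and 106 CPM in WT and 6.85, 6.33, 4.26, 4.51 and 5.96 in Shunt (-4.09 ± 0.26, adjusted p = 5.56e-08). Ogdhl went from 285 to 361 CPM to 11.9 to 36.7 (-3.70 ± 0.29), and Cds1 from 10.3 to 15.8 to 1.17 to 1.58 (-3.20 ± 0.17). In sham these 3 differed from WT by -3.54, -3.18 and -2.89, in the same order, and none was called between Shunt and sham.

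Penk, C7 and Acsm5 were lower in Shunt than in sham as well. Penk had 23.5, 14, 17.3, 26.2 and 19.5 CPM in WT, 9.07, 11, 13.9, 17.4 and 17.9 in sham and 1.03, 2.23, 2.24, 1.74 and 1.35 in Shunt. Shunt lay far below both other groups, which overlapped: -3.55 ± 0.25 against WT (adjusted p = 7.76e-08), -3.01 against sham (adjusted p = 5.10e-06), and -0.54 for sham against WT (adjusted p = 0.0708). C7 had 22 to 38.4 CPM in WT, 13.4 to 33.4 in sham and 3.41, 5.47, 1.64, 3.25 and 4.45 in Shunt (-3.08 ± 0.32 against WT; -2.40 against sham, adjusted p = 0.0022). Acsm5 had 17.7 to 22.7 CPM in WT, 2.45 to 4.73 in sham and 1.37 to 2.03 in Shunt (-3.63 ± 0.15 against WT; -1.22 against sham, adjusted p = 0.0005). Sham and WT were both male by transcripts and Shunt female, so in these genes load and sex move together and cannot be told apart. With the Y-linked covariate Penk differed from WT by -1.26 (adjusted p = 0.3868) and C7 by -2.38 (adjusted p = 0.0837). Against sham in that fit, Penk differed by -0.75 (adjusted p = 0.9396), C7 by -1.70 (adjusted p = 0.8690) and Acsm5 by -2.17 (adjusted p = 0.8690). Acsm5 against sham was also not called with all 18 libraries (-1.21, adjusted p = 0.0873).

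Of the genes with the largest changes in sham, Ptgds, prostaglandin D2 synthase, had 254 to 383 CPM in WT and 48.9, 61.7, 14.4, 31.1 and 49.9 in Shunt (-2.97 ± 0.32; -3.48 in sham), and Gnb3, a G protein beta subunit, 13 to 19.8 and 1.74 to 2.92 (-2.85 ± 0.18; -3.11 in sham).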

How the data were processed

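Left ventricular RNA was extracted with a fibrous tissue kit and sequenced from TruSeq RNA v2 libraries, a kit that keeps no strand, per the labels' protocols. The deposited files hold raw read counts per gene, which the authors made without normalization; the submitters' processing notes name the aligner STAR 2.3.0e, the counter HTSeq 0.6.1p1, CASAVA 1.8.2, SAMtools 0.1.19, FastQC and DESeq2 1.8, with the builds GRCm38 and mm10. The annotation release and the strand setting are not given in the sources used here. Of 38355 identifiers, 36602 matched GENCODE M21 symbols, the rest held no more than 0.16% of any library's counts, and 5 summary lines were left out.

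Counts of 15 libraries (5 WT, 5 sham, 5 Shunt) were fitted in R 4.3.3 with edgeR 4.0.16: filterByExpr, TMM scaling, robust quasi-likelihood F test, 12 residual degrees of freedom, Benjamini-Hochberg adjustment over 14359 genes, of which 13755 autosomal genes are reported. The 3 TAC libraries were left out because 1 had Ccnd2 near WT. The standard error is the log2 difference divided by the square root of F. Genes that share reads with near-identical copies or an antisense partner are uncertain.

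The comparison, its gene lists and the naming rule were chosen with earlier results of these data known. Named were the 4 marker genes, a panel of 14 load genes, the 6 largest rises and 6 largest falls in Shunt and in sham against WT (protein-coding, called, no overlap, mean log2 CPM of at least 1), and up to 4 members with the smallest p of each list with 3 or more calls in a direction. Rrm2, Top2a, Ccnb1, Gmnn, E2f7, Cdk2, Casq1, Tnni1, Rcan1, Ankrd23, Xirp2, Sprr1a, Npr1, Ppargc1a, Cpt1a, Cd36, Slc25a20, Scn4b, Hcn2 and Cd3e were added after their values were seen, as were list members named without values. Same-numbered WT and Shunt libraries were checked as pairs: correlations of their deviations ran from -0.037 to 0.312. They were not treated as pairs, though low correlations cannot exclude shared handling.

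Alternatives were DESeq2 1.42.0, limma-voom (limma 3.58.1), 2 other scalings, 2 other low-count filters, other sets of libraries, the replicate block, libraries with Dbp above Arntl, libraries with Myl7 at most 50 CPM, a Y-linked covariate and each library left out in turn; the share of reads outside genes as a covariate, and leaving out Shunt 1 and 5 together, were chosen after seeing the data. The fit was tested on simulated counts. Promoter windows are RefSeq's, build GRCm38.p6.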

Additional observations from a re-analysis of the deposited data

Results flagged for a closer look

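In 16 of 321 groups of 5 libraries (107 genes in 3 groups), the highest or lowest library stood farther from the next than Dixon's limit of 0.71 of the group's range. Chance gives about 1 in 20, or 16.1 here. The values are in CPM.

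Among WT libraries, Ankrd1 was 3718 in WT 5 with the next at 2054, and Hcn2 was 70.6 in WT 5 with the next at 52.3. Myl4 was 19.4 in WT 2 against 5.49. WT 3 was highest for Ogdhl (361 against 302), Ttn (4452 against 3999) and Ppargc1a (141 against 128). Lin54 was lowest in WT 1, at 8.51 against 11.6.

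Among Shunt libraries, Shunt 4 was highest for Ppp1r1b (9.72 against 4.71) and Tnni1 (4.8 against 2.71). Shunt 3 was lowest for Camk2b (12.9 against 17.8) and Ankrd23 (228 against 447). Car9, a hypoxia-induced carbonic anhydrase, was 2.14 in Shunt 1 against 0.935.

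Among sham libraries, sham 2 was highest for Kcne1 (155 against 88.3) and Npr1 (28.3 against 25.1), sham 3 for Gjc1 (48.5 against 41.2) and sham 5 for Ppp1r1b (18.8 against 6.62).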

How the results depend on the processing

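Both TMM substitutes left all 115 gene results on their side of the threshold, and DESeq2 left 114. With Dbp above Arntl, Shunt against WT had 1497 genes higher, and sham against WT 901 higher and 831 lower. With the share of reads outside genes as covariate these were 1171 higher and 1192 lower, and 319 and 285 in sham. With the Y-linked covariate Shunt against WT had 407 higher and 344 lower. Shunt against sham (53 and 116 as reported) had, higher and lower, 214 and 383 by DESeq2, 4 and 15 with all 18 libraries, 13 and 31 with Dbp above Arntl, 6 and 15 with Myl7 at most 50 CPM, 0 and 0 with the Y-linked covariate and 2 and 13 with reads outside genes; 67 were lower with no low-count filter. The replicate block, of numbers not treated as pairs here (WT 2 alone correlated best with its own number), gave 35 and 68. With the Y-linked covariate, 7 replication and 2 mitosis genes were higher and 1 load, 0 fatty acid and 2 TCA genes lower; with Dbp above Arntl, 15 mitosis genes were higher, and 5 load and 12 fatty acid genes lower; with reads outside genes, 4 load and 11 TCA genes were lower. The cause of these changes was not tested.

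Leave-one-out values of Pdk4 (-0.13 as reported) ran from -0.31 to 0.09. Leaving out 1 library at a time gave 2053 to 2462 higher and 2167 to 2545 lower for Shunt against WT, 1862 to 2241 and 1801 to 2440 for sham against WT, and 5 (without sham 1) to 108 (without Shunt 3) and 19 (without sham 4) to 139 (without Shunt 3) for Shunt against sham.

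Signs turned with the Y-linked covariate for Col1a1 (-0.87), Col3a1 (-1.05), Postn (-1.18), Csrp3 (0.01), Lum (-0.62; -0.52 against sham), Col14a1 (-0.46), Loxl2 (-0.23), Myl3 (0.16), Hrc (0.26; 0.28 against sham), Mcee (0.12), Sprr1a (-3.75), Acads (0.09 against sham) and Hadh (0.22 against sham). They also turned for Ccn2 with Myl7 at most 50 CPM (0.08), Cdkn1a without Shunt 1 and 5 (-0.03) and Pdk4 with Dbp above Arntl (0.26) or without WT 1 (0.07), Shunt 3 (0.09) or Shunt 4 (0.01).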

Other observations

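Of 15 endothelial markers, 7 were called lower in Shunt than in WT, against 18% of all genes. None was above 0, and the median log2 difference was -0.28. Emcn, an endothelial surface protein, had 72, 68.1, 50.5, 67 and 58.6 CPM in WT and 48.3, 49.2, 41.3, 39.7 and 40.6 in Shunt (-0.53 ± 0.10, adjusted p = 0.0006 by edgeR). The 2 groups did not overlap. In sham against WT 4 markers were lower, none was above 0 and the median was -0.26. No endothelial marker was called between Shunt and sham, where the median difference was -0.02. The count in Shunt was 3 without WT 1, 2 with the share of reads outside genes as covariate and 0 with the Y-linked covariate. In bulk tissue, fewer endothelial cells and less RNA per cell cannot be told apart. Of 11 smooth muscle and pericyte markers, 3 were lower (Rgs5, Kcnj8 and Myh11) and 1, Cspg4, was higher (0.54 ± 0.11), against 18% and 17.7% of all genes; the lower count was 1 with reads outside genes as covariate and 0 with the Y-linked covariate.

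Interferon response genes were lower in 3 of 30 cases in Shunt and in 18 of 30 in sham, with medians of -0.23 and -0.51; 18% of all genes were lower in Shunt and 15.6% in sham, so the Shunt count is below the share over all genes. WT 3 had a summed level of 861 CPM for this list, where the other WT libraries had 392 to 487 and Shunt libraries 383 to 457. Without WT 3, 1 member was lower; over all single omissions the count ran from 1 to 8, the highest without WT 2. Without Shunt 1 and 5 none was lower. Of 19 hypoxia response genes, 2 were higher and 5 lower, against 17.7% and 18% of all genes; the lower count ran from 1 with reads outside genes or the Y-linked term as covariate to 8 without Shunt 1 and 5. In that list, Car9 had 2.14, 0.689, 0.469, 0.48 and 0.935 CPM in Shunt and 0.146 to 0.487 in WT (1.53 ± 0.42, adjusted p = 0.0097; 0.74 with an adjusted p of 0.0946 without Shunt 1 and 5). Car9 was too low in WT to pass the low-count filter through WT alone, which favours a rise. Of 23 immediate early genes 2 were higher, Jund and Ier3, and of 16 clock genes 1, Nr1d1. Of 35 ribosomal protein genes 5 were higher, which pseudogene copies make uncertain. Each of these counts is below the 17.7% of all genes called higher.

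Other cell types gave few calls in Shunt against WT. Of 10 lymphocyte markers 7 were below the low-count filter, Cd3d and Cd3g among them, and 1 of the 3 tested was higher. Cd3e, a T cell receptor subunit, had 0.133 to 0.692 CPM in WT, 1.66 to 2.8 in Shunt and 1.55 to 3.11 in sham (2.53 ± 0.33, adjusted p = 1.92e-05). Cd3e was so low in WT that it passed the filter through the transgenic groups, which favours a rise, so the count is no measure of the list. None of 2 neutrophil or 4 red blood cell markers was called, though without Shunt 1 and 5 all 4 red blood cell markers were lower (median -2.43, against -0.35 with all libraries); 1 of 6 mesothelial markers was higher (Tbx18), and of 4 nerve markers 1 was higher and 2 lower. All 7 adipocyte markers were below the filter, with Cfd at 0 to 5 counts in WT and 3 to 184 in Shunt.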
